A study of Homo sapiens with 8 samples.

Results

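Heparan sulfate enzymes and proteoglycans are represented here by 39 genes, taken as every probe whose platform annotation carries one of their symbols. The set covers the core proteins that carry the chains and the enzymes that start, extend, modify and trim them, together with a few chondroitin sulfate genes. Of the 39 genes, 38 have a probe, and these have 50 of the 47322 probes on the array. NDST2 has no probe in the annotation used here. At least 1 probe of 29 genes was detected on at least 1 array and was tested, which left 36 member probes among 19550 tested probes and 29 member genes among 11303 tested genes.

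The genes were measured in derivatives of A375, a human malignant melanoma line, on Illumina bead arrays. CD10-A375 was stably transfected with the plasmid pCXN2.1(+)-hCD10, which carries the open reading frame of CD10, a cell-surface zinc endopeptidase encoded by MME, and mock-A375 received the empty vector. Transfected cells were selected with G418, and CD10-A375 was also sorted for CD10 on the surface. There were 4 arrays of each group, described as biological replicates, and the sources describe a single transfected population for each group. The p-values therefore reflect how much cultures of 1 population vary, and independent transfections were not compared. The comparison asks which of these genes differ in mRNA level between A375 cells with and without the CD10 plasmid.

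A probe counted as detected where its detection p was at most 0.01, which held for 15977 to 16937 probes per CD10-A375 array and 15930 to 16709 per mock-A375 array. The log2 values of arrays correlated at 0.991 to 0.993 within a group and at 0.962 to 0.967 between groups. MME has 4 probes and none was detected on any of the 8 arrays, with a lowest detection p of 0.114. Since the plasmid lacks the untranslated parts of the transcript and the probe positions were not used here, MME does not check the labels of the arrays. Of 8 markers of the melanocyte lineage, SOX10 and MITF were detected on all 8 arrays, PMEL, MLANA, TYR, TYRP1 and S100B on none, and DCT has no probe. SOX10 was itself higher in CD10-A375, by 0.53 on the log2 scale (adjusted p = 2.9e-06), whereas MITF did not pass (0.14, adjusted p = 0.323). The summed average-normalized signal of the melanocyte list was 5565 to 6369 in CD10-A375 and 3740 to 4433 in mock-A375. Most of this sum was SOX10, with mean signals of 5645 in CD10-A375 and 3887 in mock-A375. The part of these markers in the results was not tested. Of the markers of other cell types, none of the keratinocyte or endothelial list was detected, and TP63 has no probe. The summed signal of the keratinocyte list was −7.51 to 3.34 in CD10-A375 and −38.6 to −25.8 in mock-A375. That of the endothelial list was 18.9 to 37.5 in CD10-A375 and −29.0 to −11.7 in mock-A375. KRT14 and VWF came near detection (lowest detection p 0.0104 and 0.0117) and were higher in CD10-A375. Their part in the results was not tested. COL1A1, COL3A1, DCN and THY1 of the 7 fibroblast genes were not detected on any array, whereas COL1A2 was detected on 1 mock-A375 array, LUM on 2 mock-A375 arrays and PDGFRB on all 8 arrays. PTPRC and CD3E were not detected, and CD14 and LYZ, which are used here as leukocyte markers, were detected on all 8 arrays. LYZ was higher in CD10-A375 by 1.67 on the log2 scale at its brightest probe, and its part in the results was not tested. The other tested LYZ probe (0.45, adjusted p = 0.129) and CD14 (0.14, adjusted p = 0.475) did not pass. The summed average-normalized signal of the leukocyte list was 358 to 489 in CD10-A375 and 133 to 169 in mock-A375. Most of this sum came from the brightest LYZ probe, with mean signals of 371 in CD10-A375 and 107 in mock-A375. The sum of the fibroblast list was 93.5 to 139 in CD10-A375 and 189 to 256 in mock-A375. COL1A2 and LUM had no detected signal in CD10-A375, so no fold is given for them, and their part in the results was not tested. The deposited columns carry 1 letter per array, E to H for CD10-A375 and I to L for mock-A375, and if these letters mark places on a chip, place and group cannot be told apart. In such arrays fewer cells that express a gene and less RNA per cell cannot be told apart.

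Heparan sulfate is a long sugar chain attached to a small number of core proteins at the cell surface and in the matrix. Its synthesis in the Golgi starts with a short linker on serine, continues with an alternating polymer of glucuronic acid and N-acetylglucosamine, and ends with N-sulfation, epimerization of the uronic acid and sulfation of individual positions. The pattern of sulfates helps to decide which growth factors, chemokines and enzymes bind, and extracellular sulfatases can remove 6-O-sulfates after the chain has reached the surface. In melanoma and other tumours these chains are known as co-receptors for fibroblast growth factors, vascular endothelial growth factor and Wnt proteins.

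Promoters are shown for 4 genes with large differences, of which HS3ST3A1, SULF2 and GLCE were higher and UST was lower in CD10-A375, so that their sequences can be compared. Each is the stretch of 250 bases before the annotated start of the gene, 5′ to 3′ on the strand of the gene, from RefSeq on GRCh38.p14, and 33 of the 39 genes matched an entry. The capitals mark a GC box, GGGCGG, or an E-box, CACGTG, on either strand. The coordinates are chr17:13601930-13602179 on the minus strand for HS3ST3A1, chr20:47786628-47786877 on the minus strand for SULF2, chr15:69160385-69160634 on the plus strand for GLCE and chr6:148746780-148747029 on the plus strand for UST.
HS3ST3A1: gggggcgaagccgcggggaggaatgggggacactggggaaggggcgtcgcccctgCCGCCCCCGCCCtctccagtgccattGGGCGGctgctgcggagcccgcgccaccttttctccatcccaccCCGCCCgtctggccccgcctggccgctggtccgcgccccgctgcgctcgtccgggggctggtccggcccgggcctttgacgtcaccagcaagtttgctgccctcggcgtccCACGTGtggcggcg
SULF2: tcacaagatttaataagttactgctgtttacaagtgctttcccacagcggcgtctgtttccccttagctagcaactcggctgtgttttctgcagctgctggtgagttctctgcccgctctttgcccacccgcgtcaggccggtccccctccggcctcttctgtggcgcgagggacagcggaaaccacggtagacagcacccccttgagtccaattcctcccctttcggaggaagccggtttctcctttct
GLCE: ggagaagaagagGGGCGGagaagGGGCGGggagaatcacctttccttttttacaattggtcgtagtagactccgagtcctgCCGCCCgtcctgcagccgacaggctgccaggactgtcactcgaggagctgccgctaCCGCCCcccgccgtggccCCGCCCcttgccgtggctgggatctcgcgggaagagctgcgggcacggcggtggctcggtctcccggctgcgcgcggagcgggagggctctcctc
UST: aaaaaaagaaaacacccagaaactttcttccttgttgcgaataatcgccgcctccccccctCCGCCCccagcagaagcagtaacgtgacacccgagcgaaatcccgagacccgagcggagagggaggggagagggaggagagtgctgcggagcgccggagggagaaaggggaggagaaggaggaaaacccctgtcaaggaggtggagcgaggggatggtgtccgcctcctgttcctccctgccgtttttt

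The HS3ST3A1 stretch holds 4 GC boxes and 1 E-box whose first base lies 14 bases before the start. GLCE holds 5 GC boxes and UST holds 1, whereas the SULF2 stretch holds neither motif. A GC box was found in 28 of the 33 members with a promoter (84.8%) and in 42.6% of all 35116 promoters in the same table. An E-box was found in 3 of the 33 and in 6.34% of all promoters. The AP-1 site TGANTCA, searched on both strands, was found in 1 of the 33 and in 6.57% of all, and the TATA box TATAAA in 3 of the 33 and in 10.7% of all. These are matches of letters, and binding of any factor was not measured. Members were counted once per gene, whereas the 35116 promoters are every entry of the table and were not matched to the members. The shares are therefore not compared like for like.

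At an adjusted p under 0.05, CD10-A375 had higher levels of 13 and lower levels of 4 of the 29 tested member genes, and 12 did not pass the test. Over all 11303 tested genes 41.8% passed, 19.9% higher and 21.9% lower, against 58.6% of the members, 44.8% higher and 13.8% lower. The median log2 fold change of the 29 genes was 0.16, compared with −0.03 over all tested genes. The groups did not overlap for 15 of the 29, and for 40.0% of all genes. A change of 0.5 or more on the log2 scale that passed the test was found for 11 members and for 19.6% of all genes. Of the 25 members whose probe was detected on all 8 arrays, 12 were higher and 3 lower, and of all 9019 genes with such a probe 20.6% were higher and 23.0% lower. Each gene is given at its brightest tested probe, on a log2 scale after background correction and quantile normalization with an offset of 16, so that changes of dim probes come out too small. Fold changes are CD10-A375 over mock-A375, errors of group means are SD with n = 4 arrays, and adjusted p is that of limma's moderated test after Benjamini-Hochberg adjustment across every tested probe.

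**Figure D1:**
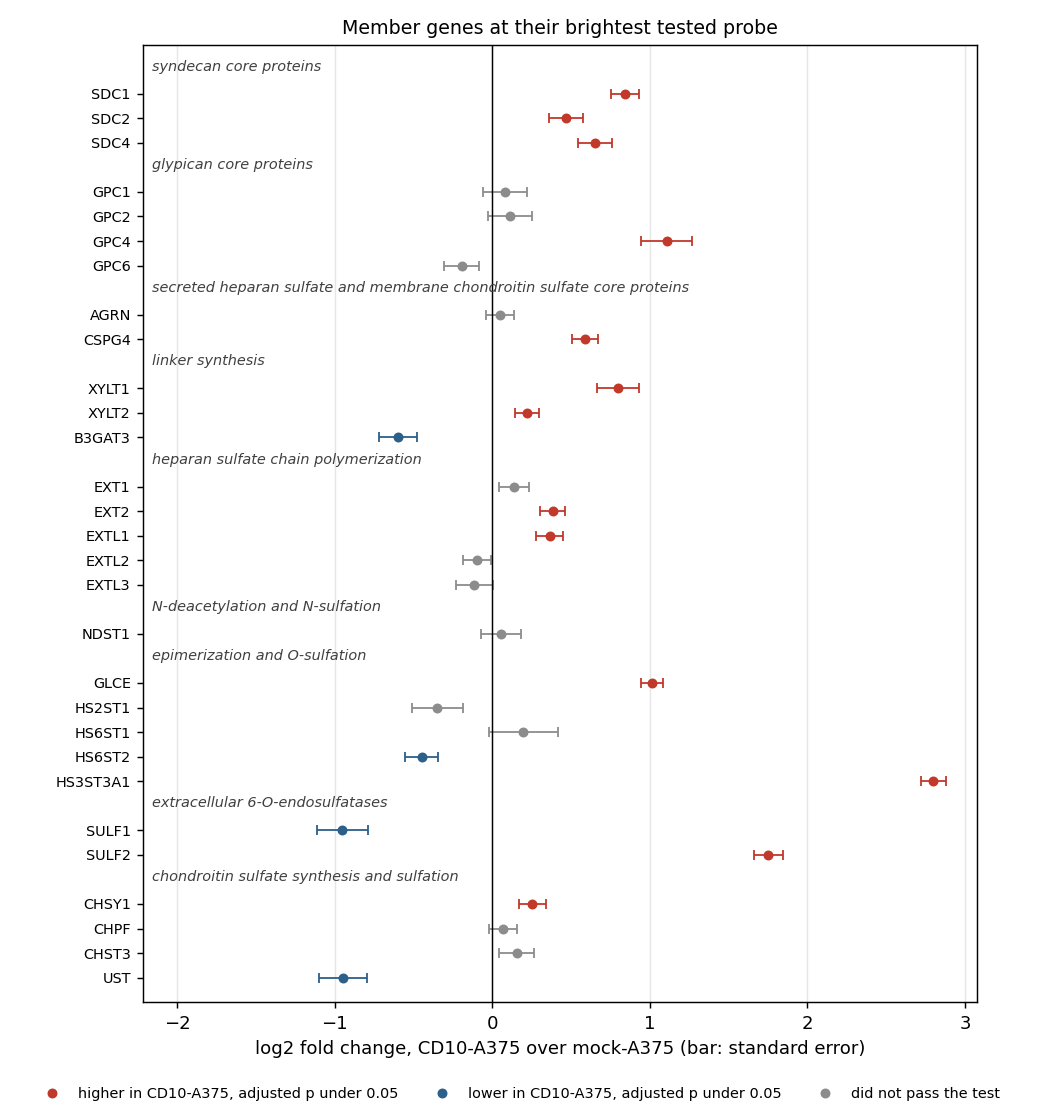
Log2 fold change of CD10-A375 over mock-A375 (x axis) for the 29 tested member genes, grouped by role, with bars for the standard error of limma's fit on 4 arrays per group. Red points were higher and blue points lower at an adjusted p under 0.05, and grey points did not pass. HS3ST3A1 (2.80) and SULF2 (1.75) lie farthest to the right, and UST (−0.95) and SULF1 farthest to the left, where the plotted value of SULF1 depends on the offset since no CD10-A375 array detected it.

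All 3 detected syndecans, the transmembrane core proteins that carry heparan sulfate at the cell surface, were higher in CD10-A375. SDC1 (syndecan-1) had log2 signals of 9.01, 9.27, 9.13 and 9.23 on the CD10-A375 arrays and of 8.41, 8.25, 8.14 and 8.46 on the mock-A375 arrays. Every CD10-A375 array was above every mock-A375 array, and the means were 9.16 ± 0.11 and 8.31 ± 0.15. The log2 fold change of SDC1 was 0.84 (SE 0.09, adjusted p = 5.8e-07). Another SDC1 probe was dim, was detected on 1 array and differed by −0.05 (adjusted p = 0.904). SDC4 (syndecan-4), which works with integrins at focal adhesions, read 8.99, 9.01, 8.54 and 8.89 in CD10-A375 and 8.32, 8.22, 8.30 and 7.98 in mock-A375. Its groups did not overlap, and the log2 fold change was 0.65 (SE 0.11, adjusted p = 9.9e-05). SDC2 (syndecan-2) rose by 0.47 (SE 0.11, adjusted p = 0.0020), from 6.66 ± 0.10 to 7.13 ± 0.07, a call that was lost with SAM. The fourth syndecan, SDC3, was not detected on any array.

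Among the glypicans, which are held to the membrane by a lipid anchor, 1 of 4 tested genes passed. GPC4 (glypican-4) had log2 signals of 7.07, 7.13, 7.01 and 6.73 in CD10-A375 and of 6.13, 6.19, 5.71 and 5.48 in mock-A375, where 3 of the 4 arrays detected it. The CD10-A375 arrays lay above the mock-A375 arrays without overlap, and the log2 fold change was 1.11 (SE 0.16, adjusted p = 2.3e-05). GPC1 and GPC2 did not pass, with log2 fold changes of 0.08 (95% interval −0.21 to 0.38) and 0.11 (−0.18 to 0.41). The probes of GPC6 gave different calls. At its brightest probe the arrays overlapped, with means of 8.04 ± 0.13 in CD10-A375 and 8.23 ± 0.24 in mock-A375, and the log2 fold change was −0.19 (adjusted p = 0.186). At the other, designed on the transcript BX640888, the CD10-A375 arrays read 7.49, 7.52, 7.61 and 7.19 and the mock-A375 arrays 8.27, 8.20, 8.34 and 8.09. The log2 fold change at this probe was −0.77 (SE 0.10, adjusted p = 8.8e-06). With the mean of all probes of a gene in place of the brightest, GPC6 was called lower. GPC3 and GPC5 were not detected. GPC3 neighbours GPC4 on chromosome X and GPC5 neighbours GPC6 on chromosome 13, so that in each of these adjacent pairs 1 gene was detected and the other was not.

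CSPG4, the membrane chondroitin sulfate proteoglycan also known as the melanoma-associated antigen NG2, was higher in CD10-A375. Its log2 signals were 11.38, 11.28, 11.44 and 11.06 in CD10-A375 and 10.81, 10.73, 10.53 and 10.75 in mock-A375. The groups did not overlap, and the log2 fold change was 0.59 (SE 0.08, adjusted p = 1.6e-05). AGRN (agrin), a secreted heparan sulfate proteoglycan of basement membranes, had a log2 fold change of 0.05 with a 95% interval of −0.13 to 0.23, and HSPG2 (perlecan) was not detected.

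**Figure D2:**
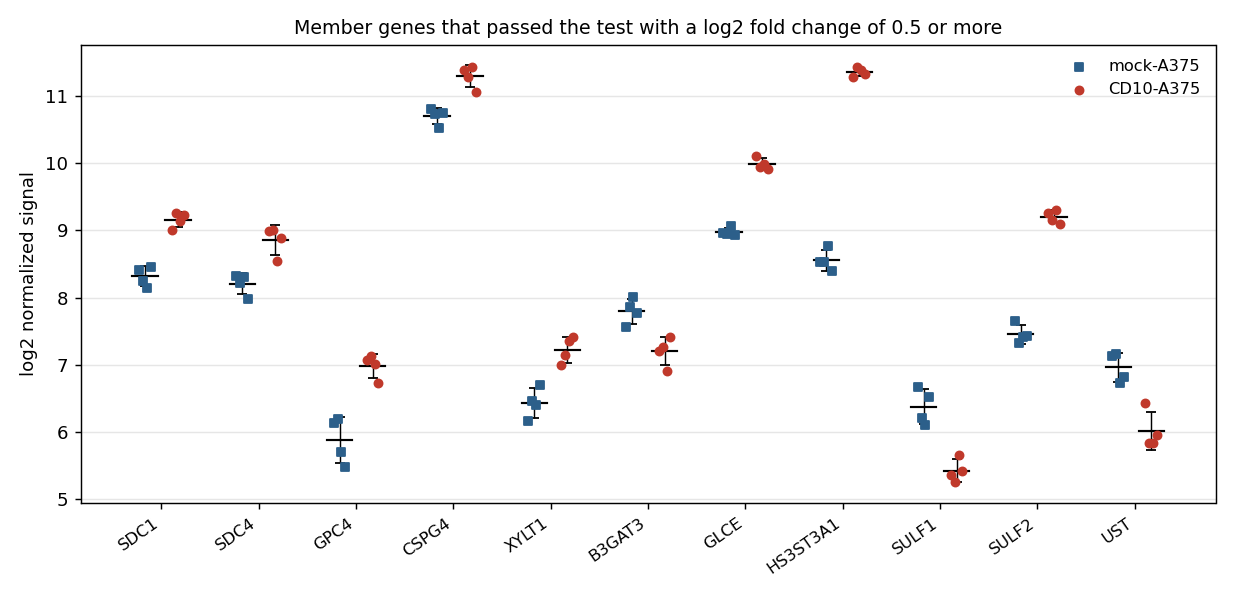
Log2 normalized signal (y axis) on each of the 4 mock-A375 arrays (blue squares) and the 4 CD10-A375 arrays (red circles) for the 11 member genes that passed the test with a log2 fold change of 0.5 or more in size. Horizontal lines are group means and bars are SD, and levels are comparable within a gene only. In none of the 11 genes do the groups overlap, and the CD10-A375 arrays lie below the mock-A375 arrays for B3GAT3, SULF1 and UST.

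The linker that joins heparan and chondroitin sulfate to the core protein is made by xylosyltransferases, galactosyltransferases and a glucuronyltransferase. XYLT1, which adds the first xylose, read 6.99, 7.14, 7.35 and 7.42 in CD10-A375 and 6.16, 6.46, 6.40 and 6.70 in mock-A375. The arrays did not overlap and the log2 fold change was 0.80 (SE 0.13, adjusted p = 1.2e-04). A second probe of XYLT1 was not detected on any array (lowest detection p 0.458). XYLT2, its paralogue, rose by 0.22 (SE 0.08, adjusted p = 0.032), but the groups overlapped and the call was lost under 13 of the 21 alternatives. Leaving out CD10-A375 array 2 or 3 or mock-A375 array 1, 2 or 3 raised the adjusted p of XYLT2 to between 0.0592 and 0.105. B3GAT3, which adds the glucuronic acid that completes the linker, read 7.21, 7.27, 6.91 and 7.41 in CD10-A375 and 7.56, 7.86, 8.00 and 7.78 in mock-A375. Every CD10-A375 array was below the mock-A375 arrays. The log2 fold change was −0.60 (SE 0.12, adjusted p = 6.4e-04), and with SAM the adjusted p was 0.0506.

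The chain is polymerized by a complex of EXT1 and EXT2, and the EXTL proteins are related glycosyltransferases. EXT2 was higher at both tested probes, by 0.38 (SE 0.08, adjusted p = 6.6e-04) at the brightest and by 0.52 (SE 0.08, adjusted p = 6.6e-05) at the other. Its brightest probe read 9.74 ± 0.08 in CD10-A375 and 9.36 ± 0.12 in mock-A375. EXT1 did not pass, at 0.14 with a 95% interval of −0.06 to 0.33. Whether EXT1 and EXT2 differ in their change was not tested. EXTL1 rose by 0.36 (SE 0.09, adjusted p = 0.0025), from 7.77 ± 0.07 to 8.14 ± 0.07, without overlap. EXTL2 and EXTL3 had log2 fold changes of −0.10 and −0.11, and neither passed. The calls of EXT2 at its brightest probe and of EXTL1 were lost with SAM.

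N-deacetylation and N-sulfation open the chain to further modification and are carried out by the NDST enzymes. NDST1 had a log2 fold change of 0.06 (95% interval −0.21 to 0.33) and NDST3 was not detected. GLCE, the epimerase that turns glucuronic into iduronic acid, was about 2-fold higher in CD10-A375. Its log2 signals were 10.11, 9.94, 9.99 and 9.92 in CD10-A375 and 8.95, 8.94, 9.07 and 8.93 in mock-A375, with means of 9.99 ± 0.08 and 8.97 ± 0.06. The gap between the groups was far wider than the spread within either, and the log2 fold change was 1.01 (SE 0.07, adjusted p = 2.3e-09), a 2.02-fold difference.

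HS3ST3A1, a 3-O-sulfotransferase that adds one of the rarest sulfates of the chain, differed most of the 29 tested members. It read 11.28, 11.42, 11.39 and 11.33 in CD10-A375 and 8.52, 8.53, 8.77 and 8.40 in mock-A375. The means were 11.36 ± 0.06 and 8.56 ± 0.16, and the log2 fold change was 2.80 (SE 0.08, adjusted p = 3.7e-15), or 6.96-fold. Over all alternatives it ranged from 2.69 to 2.87. HS3ST3B1, which lies on chromosome 17 with 2 protein-coding genes between it and HS3ST3A1, was not detected on any array, and neither were HS3ST1 and HS3ST2. HS3ST3A1 and HS3ST3B1 encode nearly identical sulfotransferase domains, and probe positions were not used here, so the signal is uncertain between them and is given to HS3ST3A1 as annotated.

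The genes that set and remove 6-O-sulfates moved in both directions. HS6ST2, a 6-O-sulfotransferase, was lower in CD10-A375 at both tested probes. Its brightest probe read 7.35, 7.05, 7.30 and 7.20 in CD10-A375 and 7.83, 7.68, 7.54 and 7.64 in mock-A375, a log2 fold change of −0.45 (SE 0.10, adjusted p = 0.0021), and the other probe gave −0.70 (SE 0.13, adjusted p = 3.6e-04). Neither probe had overlapping groups, and the call of the brightest probe was lost with SAM at an adjusted p of 0.0942. HS6ST1 was detected on 1 array of each group and its log2 fold change of 0.20 had a 95% interval of −0.26 to 0.66. HS2ST1, the 2-O-sulfotransferase, was detected on 2 CD10-A375 arrays and 4 mock-A375 arrays, and its log2 fold change was −0.35 (adjusted p = 0.104).

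SULF1 and SULF2, the extracellular endosulfatases that trim 6-O-sulfates, went in opposite directions. SULF2 was higher at all 3 probes. The brightest read 9.26, 9.16, 9.31 and 9.09 in CD10-A375 and 7.66, 7.32, 7.41 and 7.43 in mock-A375, with means of 9.21 ± 0.10 and 7.45 ± 0.14. The log2 fold change was 1.75 (SE 0.09, adjusted p = 3.0e-11), or 3.37-fold, and the other probes gave 0.97 (adjusted p = 1.1e-06) and 1.32 (adjusted p = 2.3e-06). SULF1 read 5.37, 5.25, 5.66 and 5.42 in CD10-A375, where no array detected it, and 6.67, 6.21, 6.11 and 6.52 in mock-A375, where all 4 did. Its CD10-A375 arrays lay below its mock-A375 arrays, with an adjusted p of 1.5e-04, and because the lower level is only a bound the gene is given as at least 1.60-fold lower. This bound sets the mock-A375 mean against the mean of the higher of the dimmest detected signal and the measured signal on each CD10-A375 array. SULF1 entered the test through the mock-A375 arrays alone.

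**Figure D3:**
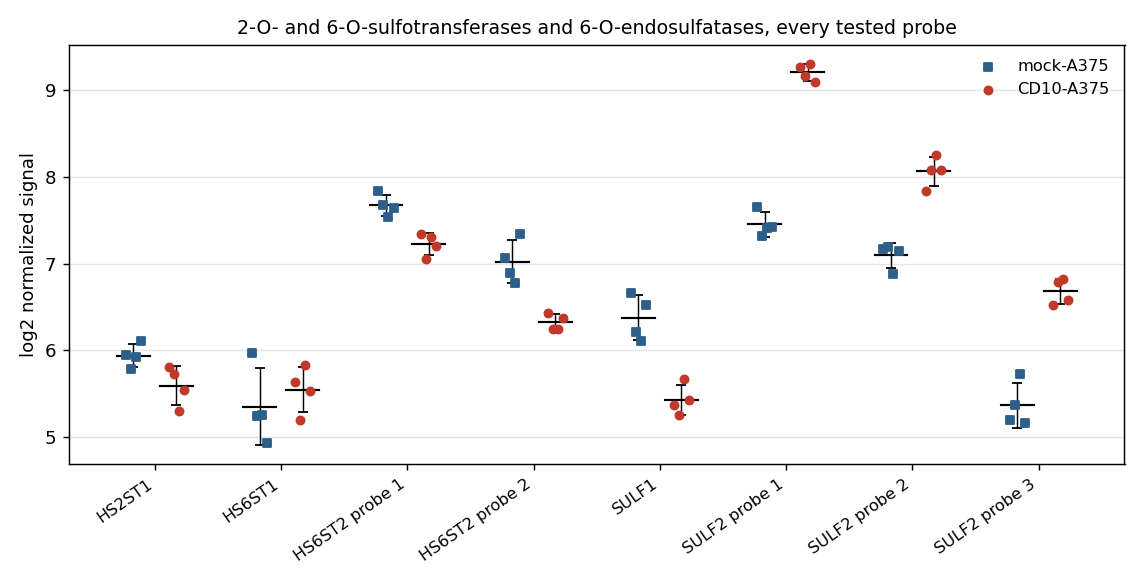
Log2 normalized signal (y axis) for every tested probe of the 2-O- and 6-O-sulfotransferases and the endosulfatases, on the 4 mock-A375 arrays (blue squares) and the 4 CD10-A375 arrays (red circles), with means and SD. Probes are numbered from the brightest within a gene. All 3 SULF2 probes are higher in CD10-A375, both HS6ST2 probes and SULF1 are lower, and the groups overlap for HS2ST1 and HS6ST1.

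Of the chondroitin sulfate genes, UST, which sulfates the 2-position of uronic acid in chondroitin and dermatan sulfate, was lower in CD10-A375. It read 6.44, 5.84, 5.84 and 5.95 in CD10-A375 and 7.14, 7.17, 6.74 and 6.82 in mock-A375. The highest CD10-A375 array stood below the lowest mock-A375 array, and the log2 fold change was −0.95 (SE 0.15, adjusted p = 7.9e-05). CHSY1, a chondroitin polymerase, rose by 0.25 (SE 0.09, adjusted p = 0.027), with overlapping groups. Its call was lost under 11 of the 21 alternatives, with an adjusted p of 0.0522 to 0.101 when CD10-A375 array 2, 3 or 4 or mock-A375 array 2 or 3 was left out. CHPF and CHST3, which lengthen and 6-O-sulfate chondroitin, had log2 fold changes of 0.07 and 0.16 and did not pass, and CHST11 was not detected. Over all 12 tested members that did not pass, log2 fold changes ran from −0.35 to 0.20 and adjusted p from 0.104 to 0.770.

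Within groups the 29 genes varied little. The SD over the 4 arrays was 0.06 to 0.28 in CD10-A375 (median 0.13) and 0.05 to 0.44 in mock-A375 (median 0.14), and the highest value belonged to HS6ST1, which was near the limit of detection.

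A wider list of 75 genes of the same pathway was read in the same way. Of these, 69 have a probe and 51 were tested, of which 20 were higher, 7 lower and 24 did not pass, beside 19.9% higher and 21.9% lower over all tested genes. Their median log2 fold change was 0.13.

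The supply of activated sulfate showed the largest difference of the list among genes detected in both groups. PAPSS2, a synthase of the sulfate donor PAPS, read 8.93, 8.71, 8.82 and 8.66 in CD10-A375 and 5.40, 5.79, 5.50 and 5.98 in mock-A375, where 2 of the 4 arrays detected it. The log2 fold change was 3.12 (SE 0.13, adjusted p = 7.6e-13), or 8.68-fold. Since its mock-A375 signal lay near the limit of detection, this size depends on the processing, from 2.48 to 3.63 over the alternatives. PAPSS1, its paralogue, gave different results at its probes, with 0.17 (adjusted p = 0.0546) at the brightest and −0.66 (adjusted p = 0.0011) at the other. SLC26A2, the sulfate transporter of the plasma membrane, was higher by 1.02 (SE 0.08, adjusted p = 1.1e-08), with 8.81 ± 0.08 against 7.79 ± 0.06. UGP2, which makes UDP-glucose, was higher at its 3 tested probes of 5, by 0.71 at the brightest and by 0.54 and 1.19 at the others. SLC35B3, a PAPS transporter of the Golgi, was lower by an amount near the threshold (−0.39, adjusted p = 0.048), and its call was lost when any single array other than CD10-A375 array 3 was left out (adjusted p 0.0563 to 0.137). Of 11 tested genes of donor supply, 4 were higher, 2 lower and 5 did not pass, so that 54.5% passed beside 41.8% of all tested genes.

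In the linker list, 2 of 4 other genes were higher and none was lower, beside 41.8% of all tested genes that passed. PXYLP1, which removes a phosphate from the linker xylose, read 10.65, 10.62, 10.62 and 10.62 in CD10-A375 and 9.21, 9.20, 9.01 and 9.13 in mock-A375. Both of its probes were higher, by 1.49 (SE 0.07, adjusted p = 4.0e-12) and 1.45 (adjusted p = 6.8e-11). B3GALT6, the second galactosyltransferase of the linker, was higher by 0.43 (SE 0.09, adjusted p = 0.0014), a call lost with SAM. Of 5 other genes of heparan sulfate modification, 4 have a probe and none was detected, among them NDST4, HS6ST3 and HS3ST5.

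Of 9 tested genes of heparan sulfate degradation, 4 were higher, none lower and 5 did not pass. The share that passed was 44.4%, near the 41.8% of all tested genes. ARSG, a lysosomal 3-O-sulfatase, was higher by 0.70 (SE 0.12, adjusted p = 1.3e-04), with 7.24 ± 0.11 against 6.54 ± 0.18. IDS, which removes 2-O-sulfate from iduronic acid, was higher by 0.77 (adjusted p = 9.7e-08) at its brightest probe, but its other probes gave 0.05 and −0.48 and did not pass, and the mean over its probes did not pass either (adjusted p = 0.258). NAGLU was higher by 0.40 (adjusted p = 0.0044) and was lost with SAM. GUSB was higher by 0.17 (adjusted p = 0.032), a call lost under 14 of the 21 alternatives, among them leaving out CD10-A375 array 1, 2 or 4 or mock-A375 array 2, 3 or 4 (adjusted p 0.0538 to 0.0815). HPSE, the heparanase that cuts the chain, had detected signals on 3 arrays of mock-A375 and none of CD10-A375. Its brightest probe read 5.40 ± 0.29 in CD10-A375 and 5.91 ± 0.38 in mock-A375 and did not pass (adjusted p = 0.0638), and the other passed (adjusted p = 0.028). Both HPSE probes entered the test through the mock-A375 arrays alone.

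Of 12 tested enzymes of chondroitin and dermatan sulfate, 2 were higher, 2 lower and 8 did not pass. The share that passed was 33.3%, beside 41.8% of all tested genes. CSGALNACT1, which starts chondroitin chains, was detected on all 4 CD10-A375 arrays (6.98, 6.99, 6.75 and 6.23) but in none of mock-A375, a level at least 2.01-fold higher (adjusted p = 2.0e-07). DSE, the dermatan sulfate epimerase, was detected on all 4 mock-A375 arrays (6.16, 5.67, 6.29 and 6.25) but in none of CD10-A375, a level at least 1.31-fold lower (adjusted p = 2.6e-06). This rests on 1 probe, and the other DSE probes were not detected on any array (lowest detection p 0.166 and 0.877). CSGALNACT1 and DSE each entered the test only through the group in which they were higher, so their adjusted p is no independent evidence. CHST14, the dermatan 4-O-sulfotransferase, was higher by 0.36 and ARSB, a chondroitin sulfatase of the lysosome, lower by 0.29 on the log2 scale, and both calls were lost with SAM. ARSB passed at its brightest probe only. Its other tested probes gave −0.31 (adjusted p = 0.0848) and 0.36 (adjusted p = 0.0969), in opposite directions, and the mean over its probes did not pass (adjusted p = 0.514). HAS3, the one hyaluronan synthase that was detected, was higher by 1.53 (SE 0.14, adjusted p = 6.4e-08), with 7.74 ± 0.26 against 6.20 ± 0.20. A second probe of HAS3 was not detected on any array (lowest detection p 0.391).

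Among 14 tested genes of other proteoglycan core proteins, 7 were higher, 3 lower and 4 did not pass, so that 71.4% passed beside 41.8% of all tested genes. SRGN (serglycin), an intracellular proteoglycan of secretory granules, was higher at both probes, by 1.08 (adjusted p = 7.7e-07) and 1.07 (adjusted p = 3.1e-07). COL18A1, a basement membrane collagen with heparan sulfate chains, was higher by 1.03 (SE 0.14, adjusted p = 7.9e-06). A second probe of COL18A1 was not detected on any array (lowest detection p 0.490). BGN (biglycan), a small matrix proteoglycan, was lower, with 10.20, 10.36, 10.10 and 10.26 in CD10-A375 and 11.25, 11.12, 11.24 and 11.21 in mock-A375, and a log2 fold change of −0.98 (SE 0.07, adjusted p = 1.7e-09). NRP1 (neuropilin-1), a receptor of semaphorins that can carry such chains, was detected by every array of CD10-A375 and by none of mock-A375, a difference of at least 7.66-fold (adjusted p = 6.1e-15) at its brightest probe and of at least 3.17-fold (adjusted p = 9.8e-10) at the other. Both NRP1 probes entered the test through the CD10-A375 arrays alone. NRP1 and CD74 of this list were also picked by the study on these arrays and are no independent evidence of the direction of the list. The fibroblast marker LUM is 1 of the 3 lower genes, was near the limit of detection and entered the test through the mock-A375 arrays alone.

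**Figure D4:**
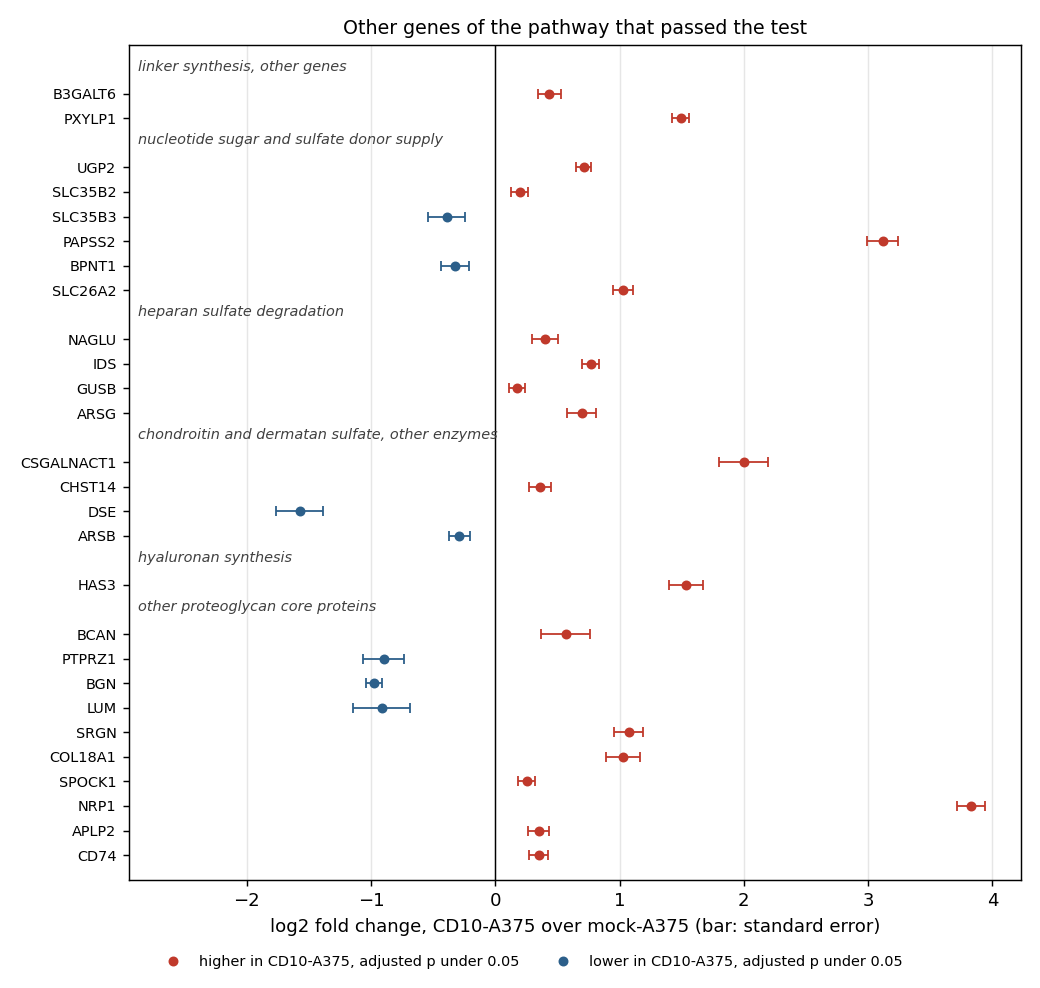
Log2 fold change of CD10-A375 over mock-A375 (x axis) for the 27 other pathway genes that passed the test, grouped by role, with bars for the standard error of limma's fit on 4 arrays per group. Red points were higher (20 genes) and blue points lower (7 genes). PAPSS2 and NRP1 lie farthest to the right, and NRP1, CSGALNACT1, DSE and LUM were detected in 1 group only, so their plotted values depend on the offset.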

How the data were processed

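RNA of 4 CD10-A375 and 4 mock-A375 cultures was hybridised to Illumina HumanHT-12 bead arrays. Per the submitters' processing notes the scans were read with GenomeStudio version 1. The authors deposited background-subtracted intensity values without normalization, each with a detection p-value against negative controls, and the same intensities scaled to a common array mean (factors of 0.883 to 1.04).

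Background was corrected from the detection p-values by normexp in limma 3.58.1 (R 4.3.3), followed by an offset of 16, quantile normalization and log2. The 19550 of 47322 probes that any array detected (detection p at most 0.01) were tested two-sided in limma's linear model, using empirical Bayes moderation and a trend on intensity. P-values were adjusted by Benjamini-Hochberg across these probes, with a threshold of 0.05. The methods of the study used SAM and average normalization, which were alternatives here, with SAM written anew over all 70 splits. The limma and SAM tests were run on simulated log2 values, which did not test the background correction, the normalization or the filter. At a 1.5-fold change limma recovered 55 and SAM 45 of 67 changed probes, and at 4-fold both recovered 66 of 66. In this simulation 19350 of 19550 probes were unchanged, so far fewer differed than were called in the real data. A gene was read at its brightest tested probe by the mean over 8 arrays. Of all probes, 30113 carry 1 gene symbol in the platform annotation, 8 several and 17201 none, and probes with several named no gene. Where no array of a group detected a probe and all 4 of the other did, a bound replaced the fold. The number of arrays limits the precision.

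The genes and lists were chosen with earlier results of these data known. Values of every array are given for members that passed with a log2 fold change of 0.5 or more in size, members whose probes gave different calls are named with each probe, and up to 4 genes with the largest change that passed are named per other list. HS6ST2, the individual arrays of PAPSS2, PXYLP1 and BGN, and PAPSS1 and HPSE were added after their values were seen. Alternatives covered the normalization, background, offset, filter on dim probes, SAM, intensity trend, replicate block, thresholds of the methods, the choice of probe for a gene and the omission of each array.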

Additional observations from a re-analysis of the deposited data

Results flagged for a closer look

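In 2 of the 96 groups of 4 arrays looked at for the 48 genes named with values, 1 array stood apart from the other arrays of its group by Dixon's criterion, which chance meets in about 1 in 20 groups. PXYLP1 read 10.653 on CD10-A375 array 1 and 10.618 to 10.622 on the other arrays of the group, so that the gap was 0.889 of a very narrow range. ARSG read 7.07 on CD10-A375 array 1, compared with 7.29 to 7.31 on the others, with a gap of 0.907 of the range. Both values come from the same array, and both lay above every mock-A375 array.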

How the results depend on the processing

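Of the 999 log2 fold changes of named genes recomputed under 21 alternatives, 916 kept their sign and their side of the threshold, 80 lost the call and 1 gained it. The other 2 changed sign, both of NDST1, which did not pass under any setting. With 1 array left out NDST1 ran from −0.037 to 0.162, and it was below 0 without CD10-A375 array 2 or 4. With SAM, 2797 probes were called in place of 7162, with 8 member genes higher and 2 lower and 11 other pathway genes higher and 4 lower. The thresholds of the methods are an unadjusted p under 0.01 with a fold over 2 or under 0.5. Here they were applied to limma's p-values and the quantile-normalized values, and not to the study's own test and normalization. They called 969 probes, 4 members higher (GPC4, GLCE, HS3ST3A1 and SULF2) and 0 lower, and 8 other genes higher and 1 lower. With probes detected on all 8 arrays, 4 other genes were lower in place of 7. Leaving out 1 array gave 6393 to 6946 called probes, 11 to 13 members higher, 4 lower under each omission, 17 to 21 other genes higher and 5 to 8 lower. XYLT2, CHSY1, GUSB and SLC35B3 lost their call under several omissions. Of called probes 47.3% were higher, against 59.3% with the thresholds of the methods. The replicate numbers do not pair the arrays (correlations of same-numbered arrays −0.19 to 0.03), and with the number as a block 6635 probes were called and XYLT2 was lost among the members. Detection limits SULF1, HS2ST1, HS6ST1, CSGALNACT1, DSE, NRP1, PAPSS2, LUM and HPSE, among others, whose signals lay close to background in at least 1 group. Over the alternatives the log2 fold change of NRP1 ran from 2.81 to 7.34.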
